A study of Rattus norvegicus with 11 samples.

Results

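The experiment described here asked whether the response of a fibroblast to E2F1 depends on phosphoinositide 3-kinase (PI3K). It used 8 of the 11 arrays of the series, chosen by their labels: every array of cells given serum after infection. The cells were REF52, an established line of rat embryo fibroblasts, and each array measured total RNA (6 µg) as biotin-labelled cRNA on the Affymetrix rat array RAE230A. All cells had been grown in medium with 10% serum and held in 0.25% serum for 48 h before infection with an adenovirus. In the first group (2 arrays) the virus expressed E2F1 and the cells then received serum with LY294002, a small molecule that inhibits PI3K. In the second (2 arrays) a control virus, labelled CMV, was followed by serum with LY294002. In the third (2 arrays) the E2F1 virus was followed by serum alone, and in the fourth (2 arrays) the CMV virus was followed by serum alone. The groups are called E2F1 cells with LY294002, CMV cells with LY294002, E2F1 cells in serum alone and CMV cells in serum alone. The other 3 arrays came from infected cells kept in deprivation medium, and entered only the estimate of the spread between arrays unless named.

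E2F1 is a transcription factor that is released from the retinoblastoma protein late in G1 and then activates genes of DNA synthesis and cell division. When it is produced in excess it can also drive apoptosis. PI3K makes a membrane lipid that activates the kinase Akt; Akt favours survival and growth, and it keeps transcription factors of the FOXO family out of the nucleus. LY294002 blocks the ATP site of PI3K, and it also inhibits some other kinases, among them mTOR and casein kinase 2.

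Several features limit these arrays as a model. The E2F1 came from a virus in 1 cell line, the labels used here give neither the dose nor the duration of LY294002, and nothing in them shows that paired arrays were independent cultures. The p-values here thus reflect array-to-array spread, which may be technical. No probe set carried the single symbol E2f1, so the introduced gene was not analysed here. Fibroblast markers were bright on all 8 arrays for vimentin, fibronectin and the type I collagens (signals of 5084 or more), while Thy1, Pdgfra, Dcn and Lum did not exceed 128.1. Of 33 measured markers of other cell types, only Myh1 passed a signal of 500 (highest 1838). The median signal of an array lay between 173 and 208. The 2 arrays of a group correlated at r = 0.959 for E2F1 cells with LY294002, 0.963 for CMV cells with LY294002, 0.977 for E2F1 cells in serum alone and 0.980 for CMV cells in serum alone, over 15866 probe sets. The second array of E2F1 cells with LY294002 stood apart in RNA quality: the 3' control probe sets for GAPDH and beta-actin exceeded the 5' ones by 0.90 on the log2 scale, against 0.12 to 0.33 on the other 7. Both second LY294002 arrays had the highest such values of the 8 and the lowest medians. A change in bulk RNA cannot tell fewer cells of a kind from less RNA per cell.

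The quantity reported is a difference of differences on the scale log2(signal + 16). The E2F1 effect is the mean of E2F1 cells minus that of CMV cells, and the difference is the E2F1 effect with LY294002 minus the E2F1 effect without it. A positive difference means that E2F1 cells stood higher over CMV cells when PI3K was inhibited. Because 16 is added first, changes of genes with signals near 16 are understated; fold values are given only where all 8 signals were at least 32.

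E2F1 altered expression with and without the inhibitor. At an adjusted p under 0.05 in limma, 600 of 15866 probe sets (3.78%) rose and 258 (1.63%) fell in E2F1 cells with LY294002 against CMV cells with LY294002, and 46 (0.29%) rose and 10 (0.063%) fell in E2F1 cells in serum alone against CMV cells in serum alone. In deprivation medium 348 (2.19%) rose and 108 (0.681%) fell, from 2 arrays of E2F1 cells and 1 of CMV cells, so the spread of CMV cells there is borrowed from the rest of the arrays. Those counts come from separate contrasts and are no test of a difference between them. Over all probe sets the 2 E2F1 effects correlated at r = 0.581 (Spearman's rho 0.468), a description across genes. They spread with an SD of 0.62 with LY294002 and 0.50 without it.

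For the difference itself no probe set passed: 0 were higher and 0 lower at an adjusted p under 0.05, and the smallest adjusted p was 0.23 (limma, Benjamini-Hochberg). At an unadjusted p under 0.05, limma gave 380 probe sets with a larger E2F1 effect under LY294002 (2.4%) and 618 with a smaller one (3.9%), where 793.3 would be expected in all without any difference. At an unadjusted p under 0.01 the counts were 72 (0.454%) and 132 (0.832%). The median difference over all probe sets was -0.05, and 90% lay between -0.92 and 0.78. The number of arrays limits precision: the median standard error of a difference was 0.35. All genes below are therefore described by their values, and none is called changed in this difference.

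The 380 and the 618 probe sets were opposite in shape, although each set was picked by the difference and its medians are a description. In the 380, the median E2F1 effect was 0.89 with LY294002 and -0.11 without it, and LY294002 itself moved the median by 0.58 in E2F1 cells and by -0.42 in CMV cells. In the 618, the median E2F1 effect was -0.56 with LY294002 and 0.48 without it, and LY294002 moved the median by -0.57 in E2F1 cells and by 0.40 in CMV cells. The E2F1 effect had opposite signs in the 2 media for 203 of the 380 and for 508 of the 618, against 5506 of all 15866. Picking by a large difference favours opposite signs, so these counts are no result of their own. Dim probe sets were over-represented among the 618: 51.9% had no group mean signal above 7 on the log2 scale, against 37.6% of the 380 and 36.6% of all. At an unadjusted p under 0.01 in limma they were over-represented in both directions, with 62.5% of the 72 upward and 66.7% of the 132 downward.

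**Figure D1:**
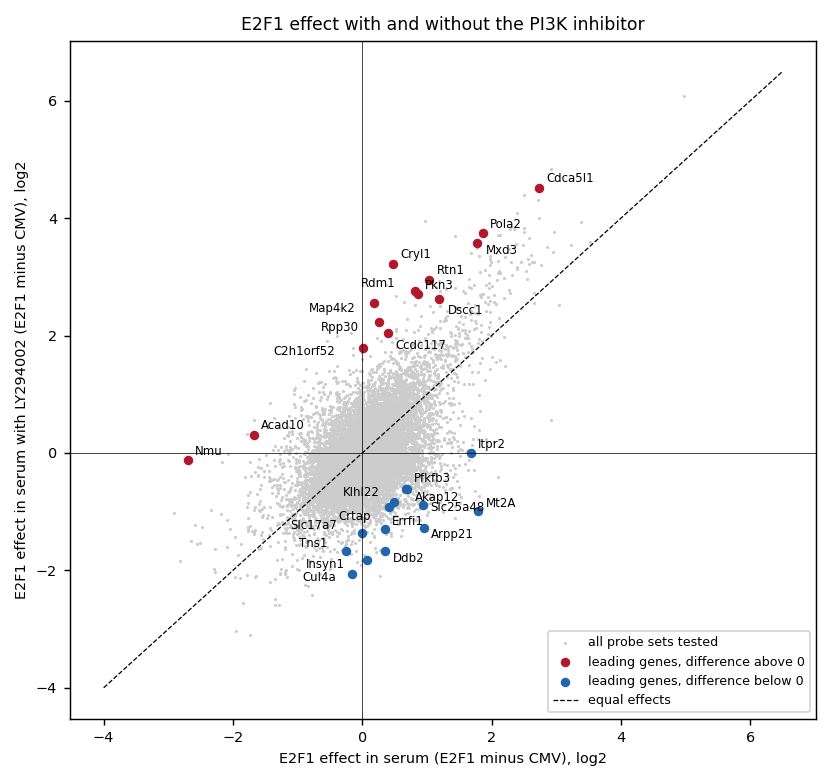
Each point is 1 of 15866 probe sets, with its E2F1 effect without LY294002 on the horizontal axis and with LY294002 on the vertical axis (E2F1 minus CMV, log2). The 14 leading genes with a positive difference (red) lie above the dashed line of equal effects and the 14 with a negative one (blue) below it, with Nmu at -2.70 and -0.12 and Cdca5l1 at 2.73 and 4.52 as the ends of the red group.

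The 14 leading genes in each direction were taken by size among probe sets with an unadjusted p under 0.01, a group mean signal of at least 7 on the log2 scale and array-by-array E2F1 effects that did not overlap between the media. Of these probe sets, 24 were eligible upward and 41 downward. Non-overlap alone was common (7.08% of all probe sets higher and 11.2% lower, or 1.68% and 2.57% with a difference of at least 1). The adjusted p of the difference lay between 0.255 and 0.735 for all 28. Each of the 28 kept its sign with any 1 of the 8 arrays left out. The non-overlap rule fixes that in advance, so it is no support.

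Upward, the typical pattern was a low signal in CMV cells with LY294002. For Pola2, Map4k2 and Cdca5l1 that low signal lay near the added 16. Only 3 of the 14 genes had no signal under 32, against 11 of the 14 leading downward. Sizes thus depended on the offset. With an offset of 64 in place of 16, Map4k2 gave 1.40 instead of 2.38, Pola2 1.10 instead of 1.89 and Cdca5l1 1.04 instead of 1.78. Nmu, Rdm1, Rtn1, C2h1orf52 and Ccdc117 also shrank, and Cryl1, Acad10, Rpp30, Pkn3, Mxd3 and Dscc1 did so by smaller factors. All 14 genes were lower in CMV cells with LY294002 than in CMV cells in serum alone (median LY294002 effect -1.55), while 13 of 14 were slightly higher in E2F1 cells with LY294002 than in E2F1 cells in serum alone (median 0.34). The E2F1 effect was positive for 13 of 14 with LY294002 (median 2.66) and for 12 of 14 without it (median 0.65). At an adjusted p under 0.05, 12 of the 14 rose with E2F1 under LY294002, an effect that is part of the difference they were chosen by, so these counts are a description.

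Cryl1, which encodes a dehydrogenase of the glucuronate pathway, had signals of 376 and 549 in E2F1 cells with LY294002, 47.1 and 24.1 in CMV cells with LY294002, 390.4 and 475 in E2F1 cells in serum alone, and 343 and 270.5 in CMV cells in serum alone. The arrays of CMV cells with LY294002 were far below the other 6, which lay between 270.5 and 549. Its difference was 2.75 ± 0.39 (adjusted p = 0.255, limma), from an E2F1 effect of 3.23 with LY294002 (adjusted p = 0.00438) and 0.48 without it (adjusted p = 0.455). Map4k2, a kinase upstream of the JNK pathway, had signals of 134 and 183 in E2F1 cells with LY294002, 12.6 and 14.4 in CMV cells with LY294002, 80.7 and 72.6 in E2F1 cells in serum alone, and 80.8 and 53.3 in CMV cells in serum alone. Again the pair of CMV cells with LY294002 was lowest, at background, and E2F1 cells with LY294002 were highest, so no group of LY294002 cells overlapped the cells in serum alone. The difference was 2.38 ± 0.32 (adjusted p = 0.255). The E2F1 effect in deprivation medium, given beside it, was 3.39 for Map4k2 and 2.17 for Cryl1.

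Replication and chromosome genes were among the leading ones. Pola2, the second subunit of DNA polymerase alpha, had signals of 406 and 382 in E2F1 cells with LY294002, 16.1 and 13.1 in CMV cells with LY294002, 408 and 240.1 in E2F1 cells in serum alone, and 59.9 and 92.4 in CMV cells in serum alone. Both CMV groups were low, CMV cells with LY294002 lowest, and the E2F1 groups overlapped. Pola2 rose with E2F1 in both media (effect 3.75, adjusted p = 0.00306 with LY294002; 1.86, adjusted p = 0.0465 without it), and the difference was 1.89 ± 0.39. Dscc1, part of the clamp loader that acts in sister chromatid cohesion, had signals of 381 and 283 in E2F1 cells with LY294002, 36.5 and 44.1 in CMV cells with LY294002, 228 and 272 in E2F1 cells in serum alone, and 74.2 and 136 in CMV cells in serum alone. E2F1 cells stood 6.14-fold over CMV cells with LY294002 and 2.27-fold without it, a difference of 1.44 ± 0.39. Pkn3, a protein kinase related to protein kinase C, had signals of 593 and 654 in E2F1 cells with LY294002, 53.1 and 123 in CMV cells with LY294002, 553 and 518 in E2F1 cells in serum alone, and 248 and 335 in CMV cells in serum alone, that is 6.52-fold with LY294002 and 1.81-fold without it (difference 1.85 ± 0.45). Mxd3, a partner of MAX, and Rdm1, a relative of the recombination protein RAD52, had differences of 1.80 ± 0.52 and 1.94 ± 0.51. Cdca5l1 rose with E2F1 in both media, by 4.52 with LY294002 (adjusted p = 0.00204) and 2.73 without it (adjusted p = 0.0402), with a difference of 1.78 ± 0.43.

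Nmu, Acad10 and C2h1orf52 had another shape, in which E2F1 cells carried the contrast or E2F1 lowered the signal in serum alone. Nmu, a neuropeptide precursor, had signals of 24.8 and 45.4 in E2F1 cells with LY294002, 69.8 and 18.7 in CMV cells with LY294002, 23.8 and 22.2 in E2F1 cells in serum alone, and 232 and 244 in CMV cells in serum alone. Only CMV cells in serum alone were high. Nmu fell with E2F1 without the inhibitor (effect -2.70, adjusted p = 0.0457), and with it the effect was -0.12. Without both second LY294002 arrays the Nmu difference was 1.63, against 2.58 with them. Acad10, of the acyl-CoA dehydrogenase family, had signals of 220.2 and 154 in E2F1 cells with LY294002, 184 and 114 in CMV cells with LY294002, 39.5 and 65.1 in E2F1 cells in serum alone, and 173 and 227 in CMV cells in serum alone; only E2F1 cells in serum alone were low, and the difference was 1.99 ± 0.45. C2h1orf52 had signals of 108 and 178 in E2F1 cells with LY294002, 30.1 and 27.5 in CMV cells with LY294002, 39.9 and 41.7 in E2F1 cells in serum alone, and 32.5 and 48.9 in CMV cells in serum alone, so that only E2F1 cells with LY294002 were high (difference 1.78 ± 0.38). The remaining upward genes were Rpp30, a subunit of ribonuclease P (1.98 ± 0.43), Rtn1, a reticulon of the endoplasmic reticulum (1.92 ± 0.48), and Ccdc117 (1.64 ± 0.43). For Rtn1 the value was 1.25 without both second LY294002 arrays.

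**Figure D2:**
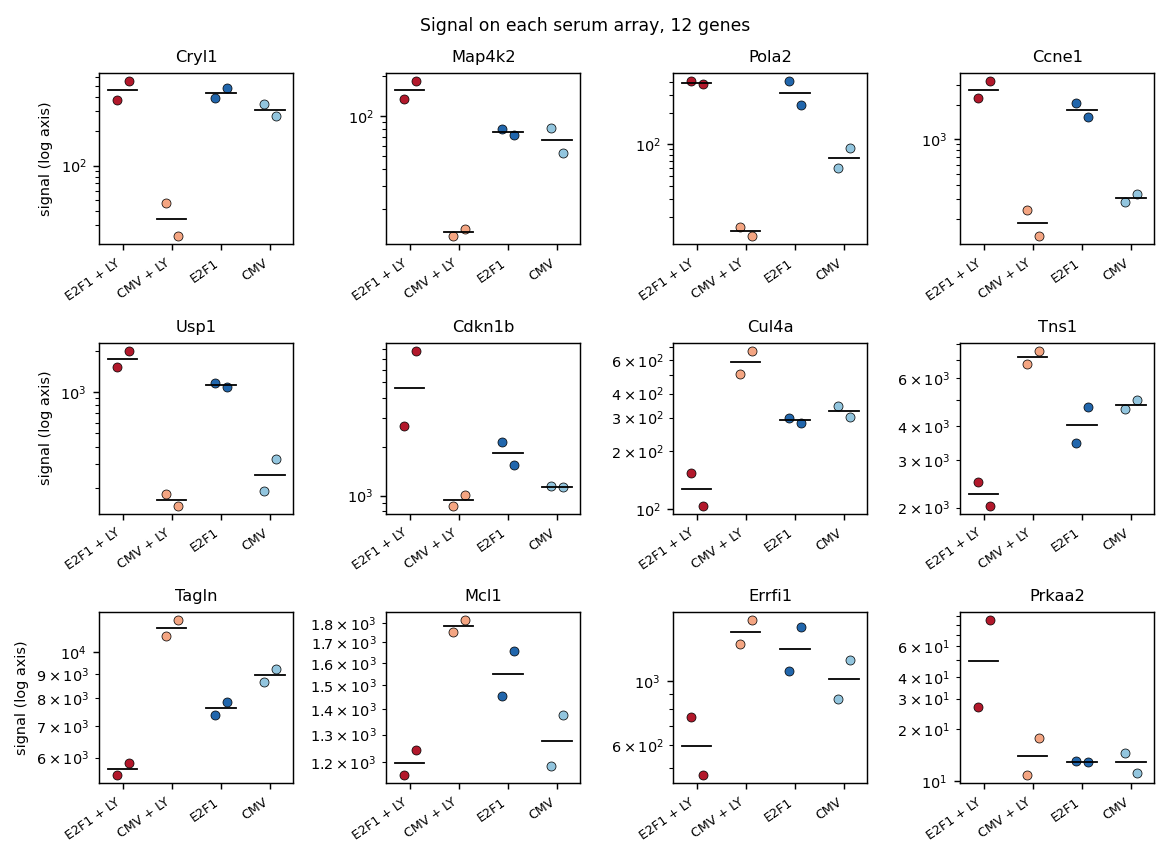
Signal of 12 genes on each of the 8 arrays (points, logarithmic axis), grouped from left to right as E2F1 with LY294002, CMV with LY294002, E2F1 and CMV in serum alone; the line is the mean of the 2 arrays. Cryl1, Map4k2 and Pola2 are lowest in CMV cells with LY294002, whereas Cul4a, Tns1, Tagln and Errfi1 are lowest in E2F1 cells with LY294002.

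Downward, the contrast lay in opposite moves. All 14 leading genes were lower in E2F1 cells with LY294002 than in E2F1 cells in serum alone (median LY294002 effect -1.08) and higher in CMV cells with LY294002 than in CMV cells in serum alone (median 0.70). The E2F1 effect was negative for 14 of 14 with LY294002 (median -1.14) and positive for 12 of 14 without it (median 0.45). At an adjusted p under 0.05, 7 of the 14 fell with E2F1 under LY294002, again part of the difference they were chosen by, and none rose or fell without it.

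Cul4a, the scaffold of a family of ubiquitin ligases, had signals of 154 and 104 in E2F1 cells with LY294002, 507 and 670.0 in CMV cells with LY294002, 299 and 282 in E2F1 cells in serum alone, and 347 and 304 in CMV cells in serum alone. E2F1 cells with LY294002 were lowest and CMV cells with LY294002 highest, with no overlap with the other 4 arrays. E2F1 cells stood at 0.239 of the level of CMV cells with LY294002 (effect -2.07, adjusted p = 0.00786) and at 0.9 without it, a difference of -1.91 ± 0.33 (adjusted p = 0.423). Ddb2, a DNA damage sensor that recruits a CUL4 ligase to lesions in DNA, had signals of 41.3 and 13.4 in E2F1 cells with LY294002, 145 and 88.9 in CMV cells with LY294002, 139.6 and 155 in E2F1 cells in serum alone, and 149 and 82.2 in CMV cells in serum alone. Only E2F1 cells with LY294002 were low, one array below the offset of 16. The difference was -2.02 ± 0.53, and Ddb2 fell with E2F1 under LY294002 (effect -1.66, adjusted p = 0.0456). A second, dimmer probe set for Ddb2 gave -0.39 ± 0.42.

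Tns1, which encodes the focal adhesion protein tensin 1, had signals of 2477 and 2029.7 in E2F1 cells with LY294002, 6792 and 7588 in CMV cells with LY294002, 3463 and 4689 in E2F1 cells in serum alone, and 4619 and 4986 in CMV cells in serum alone. The pair of E2F1 cells with LY294002 was lowest and CMV cells with LY294002 were highest. Tns1 fell with E2F1 under LY294002 to 0.314 of the CMV level (adjusted p = 0.0141), against 0.84 without it (adjusted p = 0.658), and the difference was -1.42 ± 0.32. Errfi1, a feedback inhibitor of the EGF receptor, had signals of 747 and 471 in E2F1 cells with LY294002, 1339 and 1624 in CMV cells with LY294002, 1084 and 1534 in E2F1 cells in serum alone, and 868 and 1180.5 in CMV cells in serum alone. E2F1 cells with LY294002 were lowest, the other 3 groups overlapped in part, and the difference was -1.63 ± 0.40 with an E2F1 effect of -1.29 under LY294002 (adjusted p = 0.0438). Akap12, a scaffold for protein kinase A, gave -1.29 ± 0.33, and its second probe set -1.73 ± 0.65. Itpr2, an inositol trisphosphate receptor, gave -1.68 ± 0.48, and its second probe set -0.99 ± 0.43.

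Insyn1, named for inhibitory synapses, had signals of 23.6 and 27.6 in E2F1 cells with LY294002, 134 and 129.7 in CMV cells with LY294002, 24.2 and 42.7 in E2F1 cells in serum alone, and 33.0 and 27.6 in CMV cells in serum alone. Only CMV cells with LY294002 were high, and the difference was -1.90 ± 0.29 (adjusted p = 0.285), although a second probe set gave -0.16 ± 0.40. Arpp21, a cAMP-regulated phosphoprotein, had signals of 43.4 and 45.7 in E2F1 cells with LY294002, 159.9 and 108 in CMV cells with LY294002, 144 and 129.6 in E2F1 cells in serum alone, and 53.2 and 74.1 in CMV cells in serum alone, a crossed pattern in which CMV cells with LY294002 and E2F1 cells in serum alone were high (difference -2.24 ± 0.31, adjusted p = 0.255). Its other probe sets disagreed, with -0.68 ± 0.39 and 0.55 ± 0.36. Klhl22, an adaptor of CUL3 ubiquitin ligases, gave -1.31 ± 0.35, but its 2 brighter probe sets gave 0.07 ± 0.23 and 0.06 ± 0.26. Mt2A, a metallothionein, gave -2.79 ± 0.81, and -1.85 without the first array of CMV cells with LY294002. Slc25a48, a mitochondrial carrier, Slc17a7, a vesicular glutamate transporter, Crtap, which acts in collagen hydroxylation, and Pfkfb3, which makes an activator of glycolysis, lay between -1.83 and -1.31. The brighter probe set for Pfkfb3 gave -0.26 ± 0.23, and second probe sets for Slc25a48 and Slc17a7 gave -0.27 ± 0.51 and -0.52 ± 0.43.

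**Figure D3:**
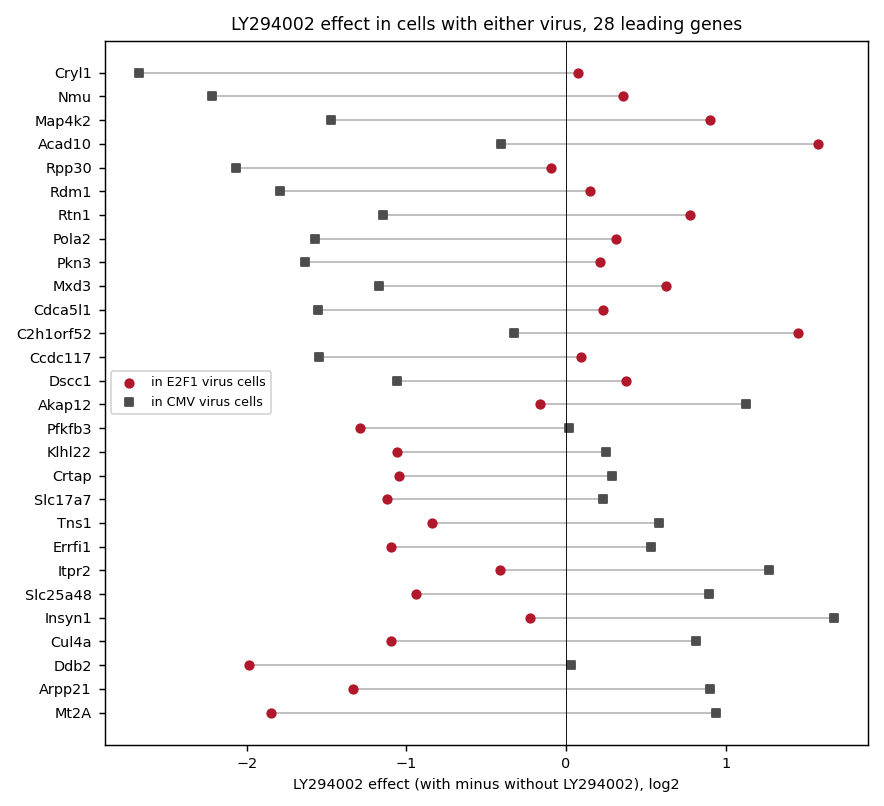
LY294002 effect (with minus without, log2) for the 28 leading genes in E2F1 cells (red circles) and in CMV cells (dark squares); the grey bar between them is the difference. In the upper 14 rows every square lies below 0 (Cryl1 at -2.67), and in the lower 14 every circle lies below 0 and every square above it (Cul4a at -1.10 and 0.81).

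Cell cycle genes were next examined as lists, by counts and medians only. Of 16 measured G1/S regulators, 12 had a positive difference (median 0.40, against -0.05 over all probe sets), and 4 passed the unadjusted threshold upward and none downward, where 2.4% of all probe sets passed upward. With any 1 array left out, between 1 and 7 passed. The 4 were cyclin E1 (Ccne1), the phosphatases Cdc25a and Cdc25b, which activate cyclin-dependent kinases, and Usp1, a deubiquitinase of the replication fork; Cdc25b was added after its value was seen. Ccne1 had signals of 2291 and 3236 in E2F1 cells with LY294002, 242 and 141 in CMV cells with LY294002, 2086 and 1550.4 in E2F1 cells in serum alone, and 280.1 and 332 in CMV cells in serum alone. The E2F1 groups overlapped CMV cells nowhere, and CMV cells with LY294002 were below CMV cells in serum alone. Ccne1 rose 13.6-fold with E2F1 under LY294002 (adjusted p = 0.00318) and 5.65-fold without it (adjusted p = 0.0402). The difference was 1.27 ± 0.41 (adjusted p = 0.741), and 0.66 without both second LY294002 arrays. Usp1 had signals of 1514 and 1999 in E2F1 cells with LY294002, 183 and 149 in CMV cells with LY294002, 1160.0 and 1078 in E2F1 cells in serum alone, and 191 and 324 in CMV cells in serum alone. It rose 9.69-fold with E2F1 under LY294002 (adjusted p = 0.00354) and 4.27-fold without it (adjusted p = 0.0402), a difference of 1.18 ± 0.37. Its second probe set gave 0.93 ± 0.50. The differences of Cdc25b and Cdc25a were 1.07 and 0.67, and a dimmer Cdc25a probe set gave -0.33 ± 0.38. Cyclin E2 (Ccne2) gave 1.11 ± 1.00, but -0.18 without the second array of CMV cells in serum alone and 2.40 without the first. The D cyclins, which act upstream of E2F, were mixed, with -0.56 for Ccnd1, -0.33 for Ccnd2 and 0.11 for Ccnd3.

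Of 35 DNA replication genes, 32 had a positive difference (median 0.48), and 3 passed the unadjusted threshold, all upward (2.4% of all probe sets did so; between 2 and 13 with 1 array left out, the 13 without the first array of CMV cells in serum alone): Pola2, the clamp loader subunit Rfc3 and Rpa2, which binds single-stranded DNA. Rfc3 had signals of 906 and 819.7 in E2F1 cells with LY294002, 249 and 239.7 in CMV cells with LY294002, 758 and 544 in E2F1 cells in serum alone, and 348 and 478 in CMV cells in serum alone. E2F1 cells were above CMV cells in both media, and CMV cells with LY294002 were the lowest. Rfc3 stood 3.37-fold over CMV cells with LY294002 and 1.55-fold without it, a difference of 1.12 ± 0.31. The Rpa2 difference was 0.99 ± 0.36. The replicative helicase genes Mcm2 to Mcm7 lay between 0.31 and 0.74, and 3 origin recognition genes, Orc2, Orc4 and Orc5, between -0.14 and -0.07. The list rested in part on 1 array: without the second array of CMV cells in serum alone its median was 0.05, with 23 of 35 positive, and without the first it was 0.73.

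Mitotic genes had the largest list median, 0.85, with 31 of 33 positive, but the value rested on 1 array. Their median level was 10.3 and 9.60 in E2F1 cells with LY294002, 7.61 and 6.70 in CMV cells with LY294002, 10.1 and 10.0 in E2F1 cells in serum alone, and 7.23 and 8.69 in CMV cells in serum alone, on the scale log2(signal + 16). E2F1 cells were alike in both media, whereas the 2 arrays of CMV cells in serum alone stood far apart. Without the second array of CMV cells in serum alone the median was -0.01, with 15 of 33 positive and none past the unadjusted threshold, and without the first it was 1.62 with 18 past it. Only Cdk1, the mitotic kinase, and Ncapd2, a condensin subunit, passed with all arrays, at 1.26 ± 0.49 and 1.39 ± 0.55, where 2.4% of all probe sets passed upward. Without that second array Cdk1 and Ncapd2 gave 0.68 and 0.78. The proliferation marker Mki67 gave 1.88 ± 0.91, and 0.83 without it. By comparison, the G1/S median stayed between 0.33 and 0.57 with any 1 array left out.

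**Figure D4:**
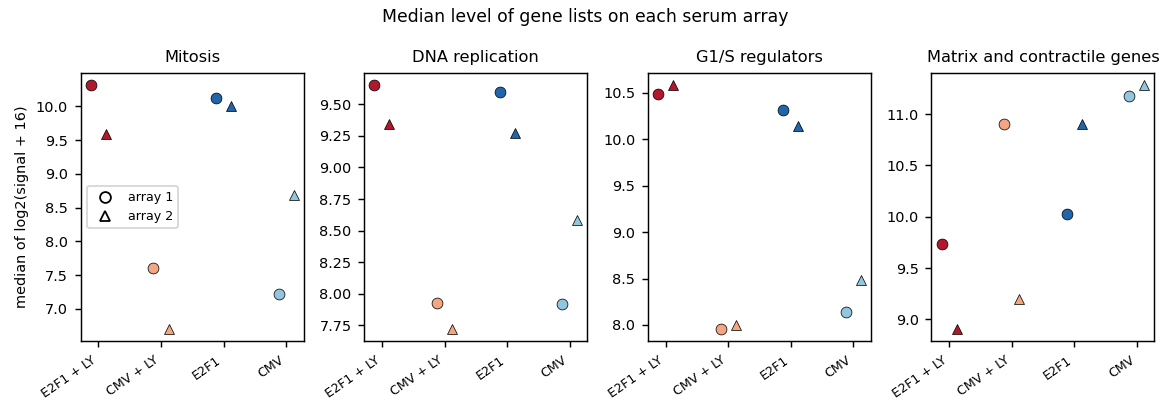
Median level of 4 gene lists on each array, log2(signal + 16), grouped from left to right as E2F1 with LY294002, CMV with LY294002, E2F1 and CMV in serum alone; circles are first and triangles second arrays. For mitosis the 2 arrays of CMV cells in serum alone differ (7.23 and 8.69), whereas G1/S regulators lie at 10.1 to 10.6 on the 4 E2F1 arrays and at 7.96 to 8.49 on the 4 CMV arrays.

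Promoters of these genes were read from RefSeq (GRCr8, 250 bases before to 50 after each gene's start, 27457 promoters, of which 618 or 2.25% held an E2F motif). The motif was TTTCCCGC, TTTCGCGC, TTTGCCGC or TTTGGCGC on either strand. It stood in 15 of 32 replication promoters (46.9%), 3 of 11 G1/S promoters (27.3%) and 1 of 28 mitotic promoters (3.57%). None of the 10 upward and none of the 12 downward leading genes that had a promoter entry held it. The FOXO motif GTAAACA stood in 3.76% of all promoters, in 4 of 29 promoters of FOXO target genes (13.8%) and in none of the leading genes. With shares this low over all promoters, sets of 10 and 12 could easily hold neither motif, so these absences are not informative. No set of these letters contains another. The sequences shown are the 150 bases before the start, on the gene's strand, with the motif in capitals, of genes whose values stand in the text: the E2F motif of Usp1 (chr5:118702906-118703055, + strand), Cdk1 (chr20:19265143-19265292, + strand) and Psmb9 (chr20:4668850-4668999, + strand), and the FOXO motif of Klf9 (chr1:230126496-230126645, + strand) and Insr (chr12:6128804-6128953, - strand). A match describes these letters and is not a measured binding site.
Usp1: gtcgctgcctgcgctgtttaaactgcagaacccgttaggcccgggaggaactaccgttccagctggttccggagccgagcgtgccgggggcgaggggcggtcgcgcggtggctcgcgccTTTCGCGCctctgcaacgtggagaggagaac
Cdk1: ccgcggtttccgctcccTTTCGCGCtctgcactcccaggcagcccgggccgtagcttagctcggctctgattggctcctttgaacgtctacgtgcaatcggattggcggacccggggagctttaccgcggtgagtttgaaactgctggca
Psmb9: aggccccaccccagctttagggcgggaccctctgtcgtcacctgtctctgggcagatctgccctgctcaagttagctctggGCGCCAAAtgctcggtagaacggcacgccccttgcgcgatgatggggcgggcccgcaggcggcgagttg
Klf9: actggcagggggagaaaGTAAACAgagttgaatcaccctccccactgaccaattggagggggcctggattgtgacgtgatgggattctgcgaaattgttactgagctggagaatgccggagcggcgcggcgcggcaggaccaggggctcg
Insr: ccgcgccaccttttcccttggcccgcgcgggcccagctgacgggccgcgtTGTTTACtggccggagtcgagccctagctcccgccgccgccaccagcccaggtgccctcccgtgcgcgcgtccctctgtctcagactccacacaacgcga

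The targets of FOXO, which Akt restrains, were mixed. Of 34 measured, 14 were positive and 20 negative (median -0.13). Past the unadjusted threshold were 4 upward (11.8%) and 3 downward (8.82%), against 2.4% and 3.9% of all probe sets. Over single arrays left out, the upward count ranged between 1 and 7 and the downward count between 0 and 3. Cdkn1b, which encodes the cyclin-dependent kinase inhibitor p27, had signals of 2693 and 7875 in E2F1 cells with LY294002, 864 and 1012 in CMV cells with LY294002, 2156 and 1552 in E2F1 cells in serum alone, and 1141 and 1124 in CMV cells in serum alone. E2F1 cells with LY294002 were highest, and their second array, the one with the raised 3' to 5' value, was far above the first. Cdkn1b rose with E2F1 under LY294002 (4.86-fold, adjusted p = 0.0302), against 1.61-fold without it (adjusted p = 0.496). The difference was 1.60 ± 0.62, 0.83 without that array, and 0.96 with the 3' to 5' value as a covariate in limma. A dimmer Cdkn1b probe set gave 0.73 ± 0.69. The muscle ubiquitin ligase Fbxo32 (1.54 ± 0.51), the Krüppel-like factor Klf15 (0.94 ± 0.30) and the pyruvate dehydrogenase kinase Pdk2 (1.12, added after its value was seen) were the others upward. The size depended on the offset: Fbxo32 gave 2.55 with an offset of 1 and 0.71 with 64, and Klf15 0.53 with 64. Without the dimmest 30% of probe sets, 2 of 30 FOXO targets passed upward and 3 downward. The insulin receptor gene Insr had signals of 126 and 77.1 in E2F1 cells with LY294002, 223 and 138 in CMV cells with LY294002, 239 and 175 in E2F1 cells in serum alone, and 162 and 157 in CMV cells in serum alone; E2F1 cells with LY294002 were lowest, and its difference was -1.07 ± 0.44, or -0.76 without the second array of that group. Trib1, a pseudokinase, and Pdk4 gave -0.82 ± 0.33 and -0.77 ± 0.30. The classical targets Irs2 (-0.12 ± 0.54), Ccng2 (0.61 ± 0.44) and Klf9 (0.48 ± 0.58) did not pass, and 1 array decided their values. Without the second array of E2F1 cells with LY294002 they were -0.65, 0.17 and -0.27, and without the first Ccng2 was 1.05 and Klf9 1.23. Dimmer Klf9 probe sets gave 0.25 ± 0.45 and -0.10 ± 0.44.

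Of 18 measured p53 targets, 1 passed upward and 1 downward (median -0.04), where 2.4% and 3.9% of all probe sets did. They were Sfn, which encodes 14-3-3 sigma, and Ddb2. Sfn had signals of 87.7 and 137 in E2F1 cells with LY294002, 18.7 and 50.5 in CMV cells with LY294002, 20.0 and 16.9 in E2F1 cells in serum alone, and 23.4 and 44.6 in CMV cells in serum alone. E2F1 cells with LY294002 were highest, and the difference was 1.90 ± 0.59. Cdkn1a, which encodes p21, had signals of 8193 and 11035 in E2F1 cells with LY294002, 4879 and 3518 in CMV cells with LY294002, 8963 and 9014 in E2F1 cells in serum alone, and 5471 and 6226 in CMV cells in serum alone. E2F1 cells were above CMV cells in both media and alike between them. It rose 2.29-fold with E2F1 under LY294002 (adjusted p = 0.0298) and stood 1.54-fold over CMV cells without it (adjusted p = 0.251), and the difference was 0.57 ± 0.32, or 0.36 without the second array of E2F1 cells with LY294002. Without the first array of that group, 5 p53 targets passed downward. In the DNA repair list of 31 genes 1 passed in each direction, where 2.4% of all probe sets passed upward and 3.9% downward. The checkpoint mediator Mdc1 gave 0.84 ± 0.36 and Ddb2 was the one gene downward. Mdc1 gave 0.46 without the second array of E2F1 cells in serum alone.

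Genes of cell death were taken in 2 lists. None of 28 apoptosis genes linked to E2F1 passed in either direction (median 0.11, 18 positive), but without the first array of E2F1 cells with LY294002 3 passed upward and 2 downward, and without the second 2 passed upward. Apaf1, the core of the apoptosome, had signals of 301 and 222 in E2F1 cells with LY294002, 379 and 244 in CMV cells with LY294002, 303 and 358 in E2F1 cells in serum alone, and 341 and 391 in CMV cells in serum alone; the 8 arrays lay between 222 and 391, and the difference was -0.08 ± 0.36 with a 95% interval from -0.92 to 0.75, or 0.12 without that second array. A dimmer Apaf1 probe set gave 0.59 ± 0.83. The BH3-only gene Bcl2l11 gave 0.69, Casp6 0.98, Aifm2 1.13 and the pore-forming Bak1 -0.94, or -0.48 without the second array of E2F1 cells with LY294002. Prkaa2, a catalytic subunit of the AMP-activated kinase, had signals of 26.7 and 85.0 in E2F1 cells with LY294002, 10.8 and 17.7 in CMV cells with LY294002, 13.2 and 12.9 in E2F1 cells in serum alone, and 14.6 and 11.2 in CMV cells in serum alone. Only E2F1 cells with LY294002 rose above background, mostly on the second array. The difference was 1.12 ± 0.54 (95% interval -0.13 to 2.37), and 0.50 without that array. In deprivation medium, with 1 array of CMV cells, Prkaa2 rose with E2F1 by 2.56 (adjusted p = 0.0359). The other catalytic subunit, Prkaa1, gave 0.29 ± 0.37, or 0.18 without that second array, and a dimmer probe set gave -0.19 ± 0.35. Among 17 measured AMP-activated kinase genes only Stradb, part of the complex that activates its upstream kinase LKB1, passed, at -0.57 ± 0.23. Downward, 3.9% of all probe sets passed.

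Of 20 genes that oppose apoptosis, none passed upward and 3 passed downward (median -0.12), where 3.9% of all probe sets passed downward. They were Mcl1, Bcl2l1, which encodes BCL-XL, and Bcl2l2. Mcl1 had signals of 1154 and 1241 in E2F1 cells with LY294002, 1750.4 and 1814 in CMV cells with LY294002, 1455 and 1657 in E2F1 cells in serum alone, and 1186 and 1376 in CMV cells in serum alone. CMV cells with LY294002 were highest and E2F1 cells with LY294002 lay at the level of CMV cells in serum alone. The E2F1 effect was -0.57 with LY294002 (adjusted p = 0.0883) and 0.28 without it (adjusted p = 0.457), a difference of -0.85 ± 0.23, and its second probe set gave -0.88 ± 0.23. Bcl2l1 had signals of 567 and 372 in E2F1 cells with LY294002, 786 and 693 in CMV cells with LY294002, 729 and 665 in E2F1 cells in serum alone, and 699 and 620.0 in CMV cells in serum alone. E2F1 cells with LY294002 were lowest and the other groups lay between 620.0 and 786. The difference was -0.74 ± 0.31, or -0.45 without the second array of E2F1 cells with LY294002. Bcl2l2 was at background on all arrays. With any 1 array left out, the list count ranged between 1 and 4 downward and between 0 and 1 upward. The relative Bcl2 gave 0.09, Xiap -0.49 and Cflar, which blocks caspase 8, -0.89.

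Of 53 measured contractile and matrix genes, 37 had a negative difference (median -0.29), and the median E2F1 effect was -0.40 with LY294002 and -0.23 without it. With the 3' to 5' value as a covariate the median difference was -0.05, with 25 of 53 positive. Of the 53, 3 passed downward (5.66%, against 3.9% of all probe sets), all of the actin filament: Tpm1 (tropomyosin), Tagln (transgelin) and Acta2 (smooth muscle actin). Tpm1 had signals of 2260.3 and 1978 in E2F1 cells with LY294002, 6123 and 6284 in CMV cells with LY294002, 2952 and 3306 in E2F1 cells in serum alone, and 5079 and 5287 in CMV cells in serum alone. E2F1 cells with LY294002 were lowest and CMV cells with LY294002 highest. Tpm1 fell with E2F1 under LY294002 to 0.343 of the CMV level (adjusted p = 0.00663) against 0.604 without it (adjusted p = 0.0973), a difference of -0.82 ± 0.22. Of its 5 other probe sets 4 had the same sign and 1, at background, the other. Tagln had signals of 5505 and 5844 in E2F1 cells with LY294002, 10787 and 11676 in CMV cells with LY294002, 7382 and 7849.7 in E2F1 cells in serum alone, and 8647 and 9216 in CMV cells in serum alone, ordered in the same way, and gave -0.75 ± 0.23; the E2F1 effect was -0.98 with LY294002 (adjusted p = 0.0204) and -0.23 without it. Acta2 gave -0.79 ± 0.34, or -0.55 without the first array of CMV cells with LY294002. Col1a1, a chain of type I collagen, gave -1.13 ± 0.50, or -0.67 without the second array of E2F1 cells with LY294002, and its second probe set -1.04 ± 0.99. The list median was -0.03 without the first array of CMV cells with LY294002 and -0.05 without the second of E2F1 cells with LY294002. The summed signal of the 12 fibroblast markers, which share members such as Col1a2 with this list, is not independent of it. It was 79438 and 81883 in E2F1 cells with LY294002 and 111656 and 92916 in CMV cells with LY294002. In serum alone it was 95609 and 103481 in E2F1 cells and 108172 and 103720 in CMV cells. Its part in the result was not tested.

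Among 40 TGF-beta and BMP genes 4 passed downward and 1 upward (median 0.01), where 3.9% and 2.4% of all probe sets did. With 1 array left out, between 2 and 5 passed downward and between 1 and 4 upward. Tgfb3, a TGF-beta ligand, had signals of 763 and 444 in E2F1 cells with LY294002, 3613 and 3587 in CMV cells with LY294002, 822 and 1563 in E2F1 cells in serum alone, and 2818 and 2740.5 in CMV cells in serum alone. CMV cells were high in both media, E2F1 cells with LY294002 were lowest, and E2F1 effects did not overlap between media. Tgfb3 fell with E2F1 under LY294002 to 0.166 of the CMV level (adjusted p = 0.0126), against 0.412 without it (adjusted p = 0.139). The difference was -1.31 ± 0.48, and -0.86 without the second array of E2F1 cells in serum alone. Ltbp1, which stores latent TGF-beta in the matrix, gave -0.95 ± 0.24, the signal transducer Smad3 -0.89 ± 0.32 and the co-receptor Tgfbr3 -0.71 ± 0.22. Inhbb, an activin subunit, was the one upward, at 0.90 ± 0.28.

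Of 50 growth factor ligands and receptors, 35 were negative (median -0.26), 5 passed downward (against 3.9% of all probe sets) and none upward. After median centring, and also after quantile normalization, 2 passed downward and 1 upward. Pdgfa, a platelet-derived growth factor chain, had signals of 2186 and 1639 in E2F1 cells with LY294002, 2573 and 3195 in CMV cells with LY294002, 2502 and 2813 in E2F1 cells in serum alone, and 1948 and 2036 in CMV cells in serum alone. CMV cells with LY294002 and E2F1 cells in serum alone were above CMV cells in serum alone, and the difference was -1.01 ± 0.29. F3, which encodes tissue factor, fell with E2F1 under LY294002 (effect -2.27, adjusted p = 0.0251) and gave a difference of -1.44 ± 0.58, or -0.87 without the second array of CMV cells with LY294002. The others were Insr and, added after their values were seen, the sphingosine phosphate receptor S1pr1 (-1.12) and Hgf (-0.53). With any 1 array left out the downward count ranged between 2 and 7.

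Serum-induced early genes had 37 of 54 members negative (median -0.21), 6 past the threshold downward (between 2 and 9 with 1 array left out, against 3.9% of all probe sets) and 1 upward. After median centring 2 passed downward and 1 upward. Phlda1, induced early by growth factors, had signals of 395 and 586 in E2F1 cells with LY294002, 518 and 773 in CMV cells with LY294002, 608 and 601 in E2F1 cells in serum alone, and 334 and 329 in CMV cells in serum alone. CMV cells in serum alone were lowest and the other groups overlapped, and the difference was -1.22 ± 0.38. Fosl1, a partner of JUN in AP-1, gave -0.95 ± 0.31 and Zfp36, which destabilises AU-rich mRNAs, -0.86 ± 0.34. Junb (-0.63), Jund (-0.91) and the MAP kinase phosphatase Dusp4 (-0.75) completed the 6 and were added after their values were seen. The orphan receptor Nr4a3 had signals of 1172 and 3892 in E2F1 cells with LY294002, 339.6 and 243 in CMV cells with LY294002, 621 and 511 in E2F1 cells in serum alone, and 295 and 206 in CMV cells in serum alone. It rose with E2F1 under LY294002 (7.09-fold, adjusted p = 0.0247 in limma). Its difference was 1.69 ± 0.71, but 0.83 without the second array of E2F1 cells with LY294002. A dimmer Nr4a3 probe set gave 0.08 ± 0.48. The immediate genes Fos (-0.30), Egr1 (-0.15) and Myc (-0.10) did not pass.

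Antigen-processing genes split. Of 46 interferon and innate genes 2 passed upward (4.35%) and 3 downward (6.52%), against 2.4% and 3.9% of all probe sets (median -0.08). Psmb9, a catalytic subunit of the immunoproteasome, had signals of 433 and 239 in E2F1 cells with LY294002, 12.9 and 3.76 in CMV cells with LY294002, 418 and 285 in E2F1 cells in serum alone, and 38.3 and 78.0 in CMV cells in serum alone. E2F1 cells were alike in both media, while CMV cells with LY294002 were at background. Psmb9 rose with E2F1 under LY294002 (effect 3.82, adjusted p = 0.00663), against 2.34 without it (adjusted p = 0.0733), a difference of 1.48 ± 0.55. Tap1, the peptide transporter, gave 1.32 ± 0.46, but 0.86 without the first array of CMV cells with LY294002, and a dimmer probe set gave 0.00 ± 0.38. Psmb8, another subunit of the same particle, had signals of 50.3 and 38.3 in E2F1 cells with LY294002, 123 and 63.4 in CMV cells with LY294002, 141 and 112 in E2F1 cells in serum alone, and 72.8 and 74.3 in CMV cells in serum alone; E2F1 cells with LY294002 were lowest and its difference was -1.47 ± 0.43. The antiviral Oas1a and the factor Irf2, at background, gave -1.23 ± 0.47 and -0.68 ± 0.25. Of 28 genes of the constitutive proteasome 2 passed upward, Psmb2 (0.88 ± 0.36) and Psma7 (0.51 ± 0.22), and none downward (median 0.09), where 2.4% of all probe sets passed upward. With any 1 of the 8 arrays left out at most 1 passed, and with a replicate block 0; Psmb2 gave 0.56 without the first array of E2F1 cells with LY294002.

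Metabolic and growth programmes had few members past the threshold, which 2.4% of all probe sets passed upward and 3.9% downward. Of 50 genes of PI3K, Akt and insulin signalling 1 passed upward and 1 downward (median -0.07): Trib3, a pseudokinase that binds Akt (1.20 ± 0.44, and 0.71 without the second array of E2F1 cells in serum alone), and Insr. Probe sets for Trib3 disagreed, with 2.98 ± 1.38 and -0.41 ± 0.82 from the others. Of 36 genes of sterol and fatty acid synthesis none passed (median -0.09), but 1 array decided this. Without the first array of CMV cells with LY294002 the median was 0.59 and 10 passed upward, and without the second it was -0.60 and 12 passed downward; Srebf2, their main transcription factor for sterols, gave -0.74 ± 0.35. None of 39 glycolysis and hypoxia genes passed (4 downward without the first array of E2F1 cells with LY294002; median -0.11, Bhlhe40 -1.01 ± 0.48), and none of 34 translation factors (median 0.04, Eif3b 0.69 ± 0.31). Among 43 ribosome biogenesis genes Ubtf, the RNA polymerase I factor, gave 0.76 ± 0.30 and the methyltransferase Ftsj3 -0.64 ± 0.23 (median 0.05). The median was -0.15 without the first array of CMV cells with LY294002. Ubtf gave 0.47 without the second array of E2F1 cells with LY294002, and its other probe sets gave 0.04 ± 0.30, 0.05 ± 0.26 and 0.61 ± 0.52. ATF4 targets, genes of amino acid supply, had 29 of 40 positive (median 0.24), with Trib3 and the glycyl-tRNA synthetase Gars1 (0.69 ± 0.28) upward and Stc2 (-1.15 ± 0.48) and Iars1 (-0.97 ± 0.37) downward. Gars1 gave 0.42 without the second array of CMV cells with LY294002, Stc2 -0.60 without the second of E2F1 cells with LY294002, Iars1 -0.59 without the first of CMV cells in serum alone, and a dimmer Iars1 probe set 1.27 ± 0.29.

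**Figure D5:**
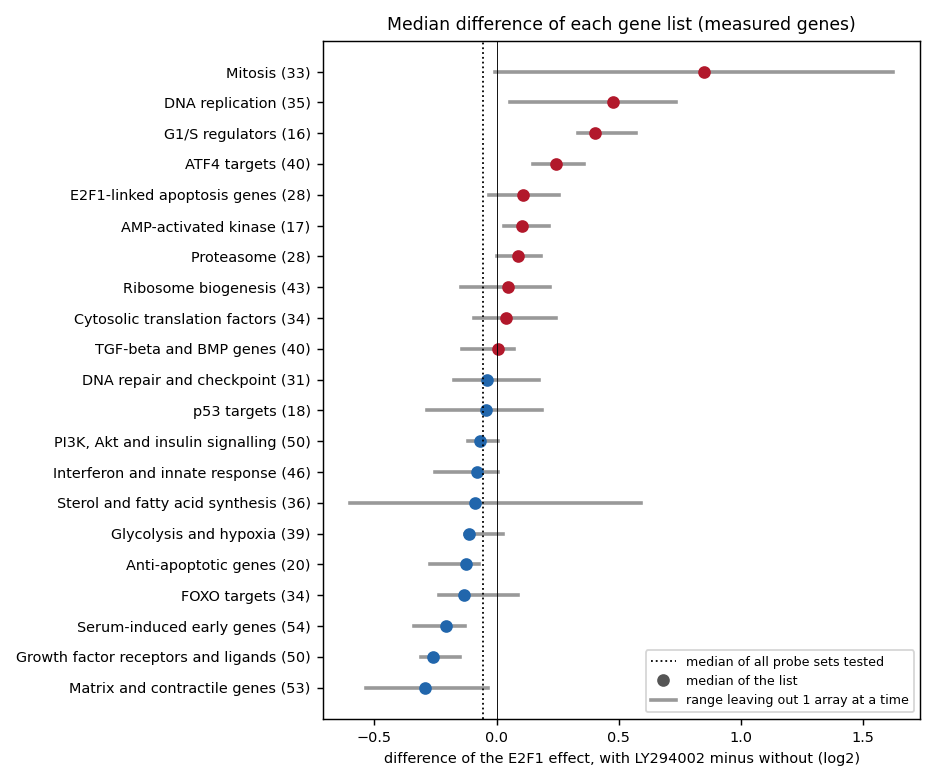
Median difference of each of 21 gene lists (points, red above 0 and blue below), with the number of measured genes in brackets and a bar for the range of the median when 1 array is left out; the dotted line is the median of all probe sets, -0.05. The G1/S bar (0.33 to 0.57) stays right of 0, the mitosis bar reaches from -0.01 to 1.62, and the sterol bar from -0.60 to 0.59.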

How the data were processed

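The authors deposited 1 signal per probe set and array, an intensity on a linear scale. MAS5 and RMA are named in the submitters' processing notes, without a role; the deposited intensity values have a trimmed mean (2% at each end) of 500 on every array. No other column of values was present (0). Control probe sets (57 of 15923) were left out, and 15866 were tested as log2(signal + 16) with limma 3.58.1 in R 4.3.3: 1 mean for each of 6 groups over 11 arrays, 5 residual degrees of freedom, eBayes, Benjamini-Hochberg over all probe sets. Of these, 12783 had 1 gene symbol, 312 several and 2771 none; 12748 matched RefSeq (GRCr8) by gene ID, and 0 symbols changed. Lists used each gene's brightest probe set. The 23 lists and the named genes were chosen with earlier results of these data known. Named genes (90) were 15 set by name (some are not reported here), the 14 leading genes a direction, and of each list up to 3 members a direction with the smallest unadjusted p under 0.05, or else 1 with the smallest p. The array numbers were not taken to pair samples: of 10 correlations between same-numbered arrays' deviations (-0.02 to 0.30) 1 exceeded 0.1, that of E2F1 with CMV cells, both with LY294002. Alternatives covered scaling, offset, dim probe sets, variance model, array weights, a replicate block, fewer arrays and the 3' to 5' value. The model was tested on simulated data. Promoters came from RefSeq.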

Additional observations from a re-analysis of the deposited data

How the results depend on the processing

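The count of probe sets past an adjusted p of 0.05 for the difference stayed at 0 under quantile normalization, median centring, offsets of 1 and 64, a filter on the dimmest 30%, a trended robust variance, array weights, the 8 serum arrays alone, both second LY294002 arrays left out and the 3' to 5' value as a covariate. With 1 array left out it ranged between 0 and 1; the 1 was Pygl, without the first array of CMV cells with LY294002 (-3.45, adjusted p = 0.0324 in limma, against -2.80 and 0.434 with it). Other call rules gave 998 probe sets (unadjusted p under 0.05), 204 (under 0.01) and 674 (no overlap and at least 1 on the log2 scale). With 1 array left out, the unadjusted counts ranged between 282 and 698 upward and between 452 and 1230 downward, the upper ends without the first array of E2F1 cells with LY294002. With a replicate block the adjusted count was 0 and the unadjusted counts 382 and 693. Scaling moved the split: 38.1% of unadjusted calls were upward, 50.9% after median centring and 48.8% after quantile normalization, and no setting moved the median of all probe sets by more than 0.1. All 76 named genes with an unadjusted p under 0.05 kept their sign wherever they were tested. They were selected by that p in these same arrays, so this is no independent support. With 1 array left out a difference fell to as little as 0.49 of its value, and 21 moved by over 1.5 times with an offset of 64. Of the 23 list medians, 7 changed sign without the second array of CMV cells in serum alone (mitosis, p53, FOXO, PI3K signalling, sterol synthesis, ribosome biogenesis and interferon), and 5 after median centring (DNA repair, interferon, p53, PI3K signalling and markers of other cell types). With the 3' to 5' value as a covariate 6 changed sign, without the first array of CMV cells with LY294002 6, and without both second LY294002 arrays 5.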

Other observations

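Among the probe sets with the smallest p of the difference, several stood outside the leading genes because no group mean signal reached 7 on the log2 scale, and they were picked after their values were seen. Traf2, an adaptor of the TNF receptor, gave 2.46 ± 0.35 (adjusted p = 0.255 in limma), with a highest group mean of 105. Wnk1, a kinase that controls ion transport, gave -2.33 ± 0.32 with a highest group mean of 49.8, and Nppb, the precursor of brain natriuretic peptide, -1.63 ± 0.24 with 64.6. Kcnab2, a potassium channel subunit, gave 1.91 ± 0.28 with 99.9. The probe set with the smallest p of all carried no single gene symbol (-2.16 ± 0.23, adjusted p = 0.23). Of the markers of other cell types 2 passed an unadjusted p of 0.05 in limma, both dim: the myelin gene Mbp (1.03 ± 0.33) and the fetal liver gene Afp (1.30 ± 0.35). Upward, 2.4% of all probe sets passed. A dimmer Mbp probe set gave -0.21 ± 0.64.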
